A study of Mus musculus with 8 samples.

Results

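The HOX genes encode homeodomain transcription factors and lie in 4 clusters. Members were taken from the deposited count table as the protein-coding genes of GENCODE M21 whose symbol is Hoxa, Hoxb, Hoxc or Hoxd followed by a number. This rule gave 39 of the 55401 genes in the table, and the rule uses no measured value. Cluster A held 11 members on the minus strand of chromosome 6, from 52155590 to 52260880 (GRCm38, the assembly of mm10). Cluster B held 10 members on chromosome 11 from 96194316 to 96368256, cluster C held 9 on chromosome 15 from 102921103 to 103036852, and cluster D held 9 on chromosome 2 from 74668310 to 74765142, all on the plus strand. The number in a symbol is the paralogue position, from 1 at one end of a cluster to 13 at the other.

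RNA was sequenced from E17.5 (embryonic day) mouse prospermatogonia, germ cells of the fetal testis that have stopped dividing and later give rise to spermatogonia. The labels give 4 libraries the genotype Tet1-/- (KO 1 to KO 4) and 4 the genotype Tet1+/+ (WT 1 to WT 4), and all 8 the batch number 1. Tet1 encodes an enzyme that oxidises 5-methylcytosine and also acts through its protein partners. The labels name no treatment for either group. They do not say how the cells were isolated, which kind of Tet1 allele was used or whether each library came from a separate animal. P-values therefore measure the spread between these libraries, which may be technical.

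In the embryo, HOX genes are switched on in the order in which they lie along the chromosome, and the combination expressed at a level of the body axis sets its identity. Polycomb complexes keep the clusters silent with the histone mark H3K27me3, often together with H3K4me3 at the same promoters, while Trithorax-group proteins and retinoic acid receptors activate them. HOX proteins bind DNA with cofactors of the TALE class, such as PBX and MEIS. Germ cells are known to hold HOX promoters in the bivalent, mostly silent state, whereas somatic cells of the trunk, including those around the gonad, express sets of HOX genes that match their position.

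Total counts ran from 13820764 to 20115250 per library, and HOX members together took 630 to 1900 of them. Levels are CPM, counts relative to the library size after TMM scaling, which sets libraries on 1 scale from the bulk of their genes, and 3 counts, the limit that a count of 0 allows, were worth 0.146 to 0.221 CPM. Such limits and the intervals below cover counting error only. Tet1 itself was read at 129, 145, 75.8 and 147 CPM in the libraries labelled KO and at 30.3, 30.2, 32.8 and 34.2 CPM in those labelled WT. It was therefore higher in the group labelled as its knockout (log2 difference 1.97, SE 0.18, edgeR adjusted p = 3.03e-06). A count over the whole gene does not show whether an exon is missing, and KO and WT below name the libraries as labelled. The germ cell markers Ddx4 and Dazl were abundant in both groups, at 455 ± 66.7 and 432 ± 24.0 CPM in KO and 366 ± 50.2 and 264 ± 45.7 CPM in WT (SD, n = 4). The library labelled KO 4 stood apart in its Leydig cell genes, summed at 1854 CPM against 27.5 to 46.1 CPM in the other 7 libraries.

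HOX genes were lower in KO or did not pass the test, and none was called higher. Of the 39 members, 23 had enough counts to be tested and 16 did not. Among those tested, 11 were lower in KO: Hoxa3, Hoxa4, Hoxa7, Hoxb4, Hoxb7, Hoxc8, Hoxc9, Hoxc10, Hoxc12, Hoxc13 and Hoxd13. The other 12 did not pass. A gene passed at an adjusted p under 0.05 in edgeR's quasi-likelihood test with Benjamini-Hochberg adjustment over all 24005 tested genes. Across those genes, 28.2% were lower in KO and 25.3% were higher. Among the 13103 tested genes of the same abundance range as the HOX members, 34.8% were lower and 12.5% higher, and among the 16568 tested protein-coding genes 29.8% and 31.0%.

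The median log2 difference (KO minus WT) of the tested HOX members was -0.80, beside -0.05 over all tested genes, 0.0048 over the protein-coding ones and -0.38 over those of the same abundance range. All KO libraries lay below all WT libraries for 12 tested members, the 11 that passed and Hoxd1. This non-overlap held for 25.1% of all tested genes and for 30.5% of those in the abundance range. Hoxd9 was the 1 tested member with all KO libraries above all WT libraries, which 23.2% of all tested genes and 11.0% of those in the abundance range showed. Of the members with a difference above 0 (Hoxa9, Hoxa10, Hoxb13, Hoxc6, Hoxd8 and Hoxd9), Hoxa10 had an unadjusted p of 0.0446 in edgeR, and DESeq2 also called 0 members higher. The count of 0 did not hold in every setting: 2 members were called higher without WT 2 (Hoxa10 and Hoxd8), and 2 with cyclic loess scaling (Hoxa10 and Hoxd9). The low-count filter could be met on the WT libraries alone, and Hoxc10 reached its level in 0 KO and 4 WT libraries, while Hoxb2, Hoxc6, Hoxc12 and Hoxd13 reached it in 1 KO library each, so the counts above describe the members that were tested and not the 39.

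**Figure D1:**
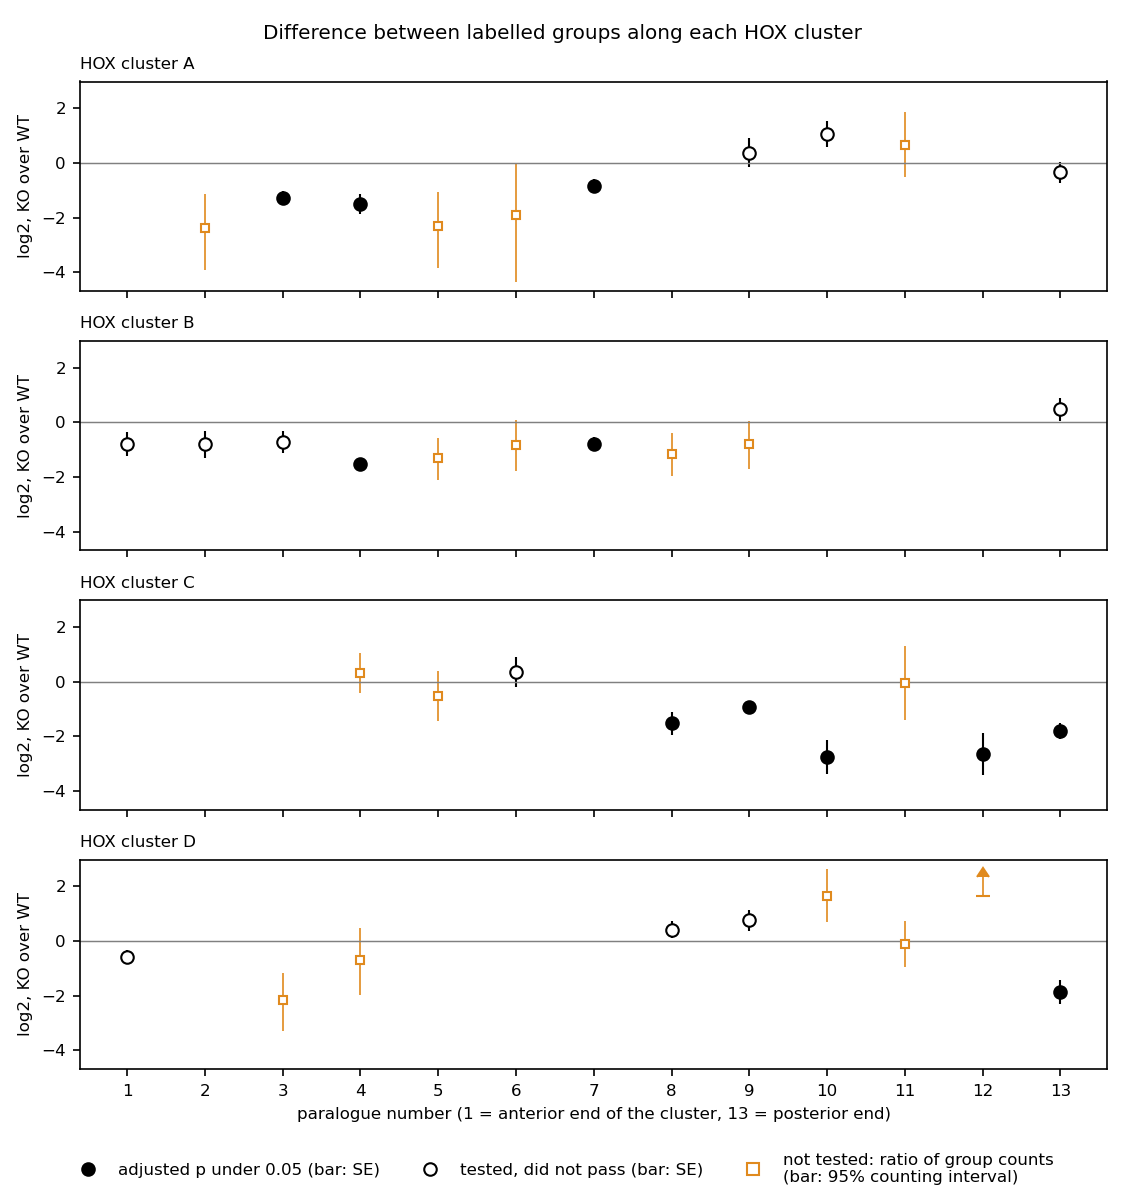
Differences between the libraries labelled KO and WT on a log2 scale (vertical axis), by paralogue number (horizontal axis), with a panel per cluster. Filled circles passed at an adjusted p under 0.05, open circles were tested and did not pass (bars: SE), and squares are ratios of group counts for members with too few counts (bars: 95% counting interval; arrow: lower limit for Hoxd12). The tested members drawn at positions 1 to 4 lie below 0, and those at positions 9 to 13 lie on both sides.

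Upstream sequence is shown for 4 members, a pair that was lower in KO (Hoxb4 and Hoxd13) and a pair with a difference above 0 (Hoxa10 and Hoxd8). Each sequence is the 250 bases before a RefSeq start site (GRCm38.p6), written 5′ to 3′ in the direction of the gene, with CG dinucleotides, the sites of DNA methylation, in capitals. The windows are chr11:96318017-96318266 (plus strand) for Hoxb4, chr2:74667975-74668224 (plus) for Hoxd13, chr6:52240855-52241104 (minus) for Hoxa10 and chr2:74704365-74704614 (plus) for Hoxd8.
Hoxb4: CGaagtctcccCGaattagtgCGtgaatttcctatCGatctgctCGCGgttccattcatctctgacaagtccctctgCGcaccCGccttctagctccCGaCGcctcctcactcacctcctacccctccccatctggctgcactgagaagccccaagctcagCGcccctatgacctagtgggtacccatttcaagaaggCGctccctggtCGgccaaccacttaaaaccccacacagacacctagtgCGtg
Hoxd13: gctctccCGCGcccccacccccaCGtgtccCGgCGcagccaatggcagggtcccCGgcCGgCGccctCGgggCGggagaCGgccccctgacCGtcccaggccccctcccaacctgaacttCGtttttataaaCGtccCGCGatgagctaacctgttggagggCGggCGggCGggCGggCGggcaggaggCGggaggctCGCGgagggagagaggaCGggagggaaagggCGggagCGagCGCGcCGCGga
Hoxa10: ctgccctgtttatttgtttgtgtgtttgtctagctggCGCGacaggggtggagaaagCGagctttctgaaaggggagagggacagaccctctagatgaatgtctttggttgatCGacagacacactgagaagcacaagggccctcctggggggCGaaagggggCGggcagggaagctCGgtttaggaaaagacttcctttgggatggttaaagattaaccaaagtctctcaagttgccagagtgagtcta
Hoxd8: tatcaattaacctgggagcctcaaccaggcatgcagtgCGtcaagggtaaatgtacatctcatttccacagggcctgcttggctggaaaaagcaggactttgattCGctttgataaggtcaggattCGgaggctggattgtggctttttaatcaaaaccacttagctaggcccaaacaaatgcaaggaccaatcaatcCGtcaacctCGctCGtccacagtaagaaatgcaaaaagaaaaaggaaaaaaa
The window of Hoxb4 held 14 CG dinucleotides and that of Hoxd13 held 31, against 7 for Hoxa10 and 6 for Hoxd8. At least as many were found in 29.4%, 5.19%, 46.3% and 50.4% of the 32851 windows of the same length in the RefSeq table. The table matched 22 of the 39 members by symbol, with 24 windows, since Hoxa10 and Hoxd11 each have another start site. The other window of Hoxa10 held 20 CG dinucleotides. Across these 24 windows the median was 12.5 CG (range 2 to 35), beside 6 over all windows. Windows of members that were lower in KO (4 windows) had a median of 16, those that did not pass (8 windows) a median of 10 and those that were not tested (12 windows) a median of 12, with ranges that overlapped. The letters TATAAA, searched on both strands, were in 4 of the 24 windows and in 12.4% of all windows, and the window of Hoxd13 held 2 such matches. TGATNNAT, a form of the PBX and HOX binding motif, was also in 4 of the 24, and in 7.68% of all windows, searched on both strands. These matches describe the letters and are not measured binding sites.

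In cluster A, 3 of the 7 tested members fell, Hoxa3, Hoxa4 and Hoxa7, and the median difference was -0.84. None of the 3 tested members at positions 9 to 13 passed. Hoxa3, needed for the thymus and the parathyroid, was at 5.17, 4.77, 9.37 and 5.27 CPM in KO 1 to KO 4 and at 11.8, 16.4, 12.4 and 18.1 CPM in WT 1 to WT 4. The groups did not overlap, and KO 3 lay nearest to WT. The log2 difference was -1.26 (SE 0.23, edgeR adjusted p = 0.000617). Hoxa4, which patterns the neck and upper trunk, was at 2.05, 0.851, 2.58 and 1.35 CPM in KO and 4.61, 7.44, 3.94 and 3.11 CPM in WT. Every WT library was above every KO library, with a log2 difference of -1.49 (SE 0.36, edgeR adjusted p = 0.00358). Hoxa7, a gene of the thoracic level, was at 2.52, 4.88, 5.54 and 3.47 CPM in KO and 6.04, 7.20, 8.18 and 7.89 CPM in WT, which also did not overlap. Its log2 difference was -0.84 (SE 0.25, edgeR adjusted p = 0.0113).

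At the end of the cluster with the high paralogue numbers, Hoxa10, known for its part in the uterus and in testis descent, was at 1.19, 1.70, 0.960 and 1.54 CPM in KO and 0.410, 1.39, 0.535 and 0.259 CPM in WT. WT 2 lay among the KO libraries and the other 3 WT libraries lay below them. The log2 difference was 1.05 (SE 0.48, edgeR adjusted p = 0.0772), and without WT 2 it was 1.72 with an edgeR adjusted p of 0.00627. Hoxa9, often active in blood progenitors, was at 1.19, 0.454, 0.664 and 1.03 CPM in KO and 0.666, 1.16, 0.584 and 0.129 CPM in WT, with overlap and a log2 difference of 0.37 (SE 0.53, edgeR adjusted p = 0.573). Hoxa13, a gene of the digits and the genital tubercle, was between 1.08 and 1.79 CPM in KO. WT 2 had 3.19 CPM of Hoxa13, and the other WT libraries had 1.23 to 1.31 CPM, within the KO range. Its log2 difference of -0.34 (edgeR adjusted p = 0.466) was 0.12 without WT 2.

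**Figure D2:**
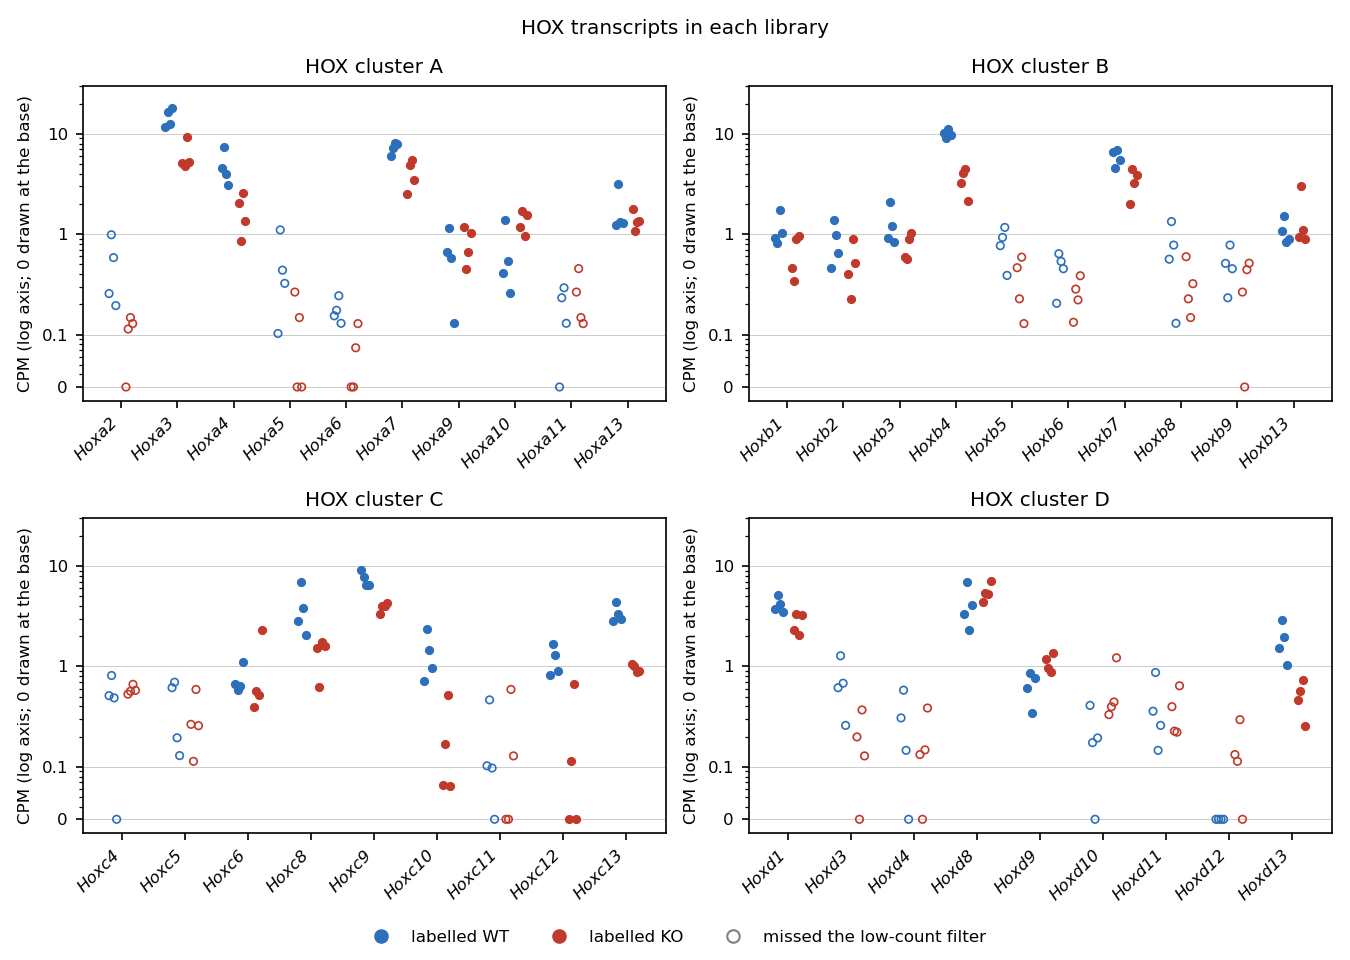
Level of the HOX members in every library, in CPM on a log axis with 0 at the base, with a panel per cluster. Points are single libraries, blue for WT and red for KO, and open points are members that missed the low-count filter. The groups lie apart for Hoxb4 (2.12 to 4.43 against 9.06 to 11.1 CPM), Hoxc9 and Hoxc13, and mix for Hoxa9, Hoxa13 and Hoxb13.

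In cluster B, 2 of the 6 tested members fell, Hoxb4, known for the expansion of blood stem cells, and Hoxb7. The median difference was -0.79, and 5 of the 6 lay below 0. Hoxb4 was at 3.25, 4.08, 4.43 and 2.12 CPM in KO and at 10.1, 9.06, 11.1 and 9.64 CPM in WT, with a wide gap between the groups. The means were 3.47 ± 1.03 and 9.998 ± 0.884 CPM (SD, n = 4), and the log2 difference was -1.53 (SE 0.23, edgeR adjusted p = 0.000115), the lowest adjusted p among the HOX members. Hoxb7 was at 1.99, 4.42, 3.25 and 3.92 CPM in KO and 6.61, 4.59, 6.91 and 5.44 CPM in WT. KO 2 and WT 2 lay close together without overlap, and the log2 difference was -0.79 (SE 0.26, edgeR adjusted p = 0.0199). The call for Hoxb7 was lost without KO 1, WT 1 or WT 3, where the edgeR adjusted p was 0.0619, 0.0575 and 0.0709.

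The other tested members of cluster B did not pass and their groups overlapped. Hoxb1, which sets the identity of a hindbrain segment, was at 0.464, 0.340, 0.886 and 0.964 CPM in KO and 0.922, 0.813, 1.75 and 1.04 CPM in WT (log2 difference -0.79, SE 0.44, edgeR adjusted p = 0.145). Hoxb3 gave -0.72 (SE 0.40, edgeR adjusted p = 0.148), from 0.567 to 1.03 CPM in KO and 0.841 to 2.09 CPM in WT. Hoxb2 gave -0.80 (SE 0.50, edgeR adjusted p = 0.193), from 0.227 to 0.886 CPM in KO and 0.461 to 1.39 CPM in WT. Hoxb13, the gene at the far 5′ end and a marker of the prostate and hindgut, was at 0.928, 3.01, 1.11 and 0.900 CPM in KO and 1.08, 1.51, 0.828 and 0.906 CPM in WT. Only KO 2 lay above the WT range. The log2 difference of Hoxb13 was 0.48 (edgeR adjusted p = 0.376), and -0.10 without KO 2.

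Cluster C held the most called members: 5 of its 6 tested genes were lower in KO, with a median difference of -1.66, a count that includes Hoxc10 and Hoxc12, which met the filter mainly or wholly on their WT counts. Whether clusters differ was not tested. Hoxc13, a regulator of hair keratins, was at 1.06, 1.02, 0.886 and 0.900 CPM in KO and 2.87, 4.41, 3.31 and 2.98 CPM in WT. The KO libraries lay within a narrow band below all WT libraries, and the log2 difference was -1.80 (SE 0.28, edgeR adjusted p = 0.000150). Hoxc9, which sets thoracic motor neuron identity, was at 3.31, 3.97, 3.99 and 4.31 CPM in KO and 9.07, 7.84, 6.43 and 6.47 CPM in WT. It did not overlap either, with a log2 difference of -0.94 (SE 0.20, edgeR adjusted p = 0.00154). Hoxc8, active in the brachial and thoracic trunk, was at 1.52, 0.624, 1.77 and 1.61 CPM in KO and 2.82, 7.03, 3.85 and 2.07 CPM in WT. The groups lay close at WT 4 and far apart at WT 2, and the log2 difference was -1.52 (SE 0.41, edgeR adjusted p = 0.00707).

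The lumbar gene Hoxc10 and Hoxc12 had few counts in KO. Hoxc11, which lies between them, had too few counts in both groups to be tested (10 in KO, 12 in WT). Hoxc10 had 1, 3, 7 and 1 counts in KO 1 to KO 4 and 14, 41, 30 and 15 counts in WT 1 to WT 4. Its log2 difference was -2.76 (SE 0.62, edgeR adjusted p = 0.00222). Hoxc12 had 0, 2, 9 and 0 counts in KO and 16, 29, 27 and 14 counts in WT, with a log2 difference of -2.65 (SE 0.76, edgeR adjusted p = 0.0103). Neither gene overlapped between the groups. KO 3 held 7 of the 12 KO counts of Hoxc10 and 9 of the 11 of Hoxc12, and without it the log2 differences were -3.63 for Hoxc10 and -4.60 for Hoxc12. Hoxc6 was the 1 tested member of cluster C that did not pass (log2 difference 0.36, SE 0.55, edgeR adjusted p = 0.600). It was at 0.398, 0.567 and 0.517 CPM in KO 1 to KO 3 and at 2.31 CPM in KO 4, against 0.666, 0.581, 0.633 and 1.10 CPM in WT. Hoxc6 gave -0.55 without KO 4, the library with the high Leydig cell genes.

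In cluster D, Hoxd13 fell, Hoxd1 was lower in all KO libraries without passing, and the genes between them lay on both sides of 0. Hoxd13, known for the digits and external genitalia, was at 0.464, 0.567, 0.738 and 0.257 CPM in KO and 1.54, 2.90, 1.95 and 1.04 CPM in WT. The groups did not overlap, and the log2 difference was -1.87 (SE 0.43, edgeR adjusted p = 0.00263). Hoxd1 was at 2.32, 3.35, 2.07 and 3.28 CPM in KO and 3.74, 5.11, 4.19 and 3.49 CPM in WT. Its log2 difference of -0.58 (SE 0.25, edgeR adjusted p = 0.0617) passed under upper-quartile scaling (adjusted p = 0.0118) and ribosomal protein scaling (adjusted p = 0.0303). Hoxd8 was at 4.37, 5.45, 5.31 and 7.20 CPM in KO and 3.33, 7.03, 2.34 and 4.08 CPM in WT. WT 2 again lay among the KO libraries, above the other WT libraries. The log2 difference of Hoxd8 was 0.42 (SE 0.30, edgeR adjusted p = 0.263), and 0.79 without WT 2, where it passed (adjusted p = 0.0217). Hoxd9 was at 1.19, 0.964, 0.886 and 1.35 CPM in KO and 0.615, 0.871, 0.341 and 0.777 CPM in WT, without overlap, but did not pass (log2 difference 0.76, SE 0.39, edgeR adjusted p = 0.115).

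The 16 members that were not tested had 3 to 37 counts over the 4 KO libraries and 0 to 61 over the 4 WT libraries. Their KO to WT ratio of summed counts, scaled by library size, was below 1 for 12 and above 1 for 4. An exact 95% counting interval lay below 1 for 6 and above 1 for 2, an interval that leaves out the spread between libraries. Hoxa2, which patterns the pharyngeal arches, had 0, 2, 2 and 2 counts in KO and 5, 17, 12 and 3 in WT (ratio 0.191, interval 0.0658 to 0.456). Hoxa5, known for lung and airway development, had 4, 0, 2 and 0 counts in KO and 2, 19, 9 and 5 in WT (ratio 0.202, interval 0.0693 to 0.485). Hoxd3 had 3, 0, 5 and 2 counts in KO and 12, 22, 14 and 4 in WT (ratio 0.226, interval 0.103 to 0.450). For Hoxa2 every WT library had more CPM than every KO library, while Hoxa5 and Hoxd3 overlapped between the groups. Hoxb5 gave 0.405 (interval 0.234 to 0.675), Hoxb8 gave 0.452 (0.256 to 0.771) and Hoxa6 gave 0.271 (0.0496 to 0.988).

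The untested genes above 1 lay partly in the middle of cluster D. Hoxd10, a gene of the lumbar and limb levels, had 5, 7, 6 and 19 counts in KO and 8, 3, 0 and 3 in WT (ratio 3.11, interval 1.64 to 6.23), with its highest count in KO 4. Hoxd12 had 2, 2, 4 and 0 counts in KO and 0 in every WT library. This is 3.14-fold higher when the 8 KO counts, taken as exact, are set against a limit of 3 counts over the WT group. The counting interval of its ratio begins at 2.01. These counts are too few to read more than a detection. Hoxa11 (16 counts in KO, 12 in WT) and Hoxc4 (36 in KO, 34 in WT) were also above 1, with intervals that included 1. Hoxb6, Hoxb9, Hoxc5, Hoxc11, Hoxd4 and Hoxd11 had ratios from 0.570 to 0.980 and intervals that included 1. Without the low-count filter, 2 of the 16 were called lower by edgeR, Hoxa2 (adjusted p = 0.0376) and Hoxd3 (adjusted p = 0.0303), and 0 were called higher.

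Summed over the 39 members, the HOX level was 41.7, 46.3, 55.6 and 50.7 CPM in KO 1 to KO 4 and 78.1, 110.4, 83.9 and 77.3 CPM in WT 1 to WT 4. The means were 48.6 ± 5.92 and 87.4 ± 15.6 CPM (SD, n = 4), a ratio of 0.556, and every KO library lay below every WT library. Cluster A summed to 17.0 ± 3.40 CPM in KO and 33.2 ± 6.997 CPM in WT, cluster B to 11.5 ± 1.98 and 22.7 ± 2.55 CPM, and cluster C to 8.66 ± 1.74 and 19.1 ± 4.79 CPM. Their ratios of 0.513, 0.508 and 0.453 were close to each other, and in each of these 3 clusters the groups did not overlap. Cluster D summed to 9.54, 11.1, 10.5 and 14.5 CPM in KO and 10.9, 18.8, 9.78 and 10.1 CPM in WT. These overlapped, with a ratio of 0.918 that was 1.11 without WT 2 and 0.835 without KO 4.

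Cluster D took a larger share of the HOX signal in KO. Its share was 22.9%, 23.9%, 18.9% and 28.5% of HOX CPM in KO and 13.98%, 17.1%, 11.7% and 13.1% in WT, without overlap. The shares of the other clusters were 35.0% and 37.9% for A, 23.8% and 26.4% for B, and 17.7% and 21.7% for C (means in KO and WT), and each overlapped between the groups. The 5 genes from Hoxd8 to Hoxd12, a stretch chosen after its values were seen, summed to 6.43, 7.15, 7.16 and 10.4 CPM in KO and 4.71, 8.95, 2.82 and 5.31 CPM in WT, a ratio of 1.43 with overlap at WT 2.

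By paralogue position, tested members 1 to 4 were the class with no difference above 0. Of the 12 members at positions 1 to 4, 8 were tested, all 8 had a difference below 0 and 3 passed (median -0.92). The median of the same abundance range was itself below 0 (-0.38), and its share of genes below 0 was not computed. With cyclic loess scaling Hoxb1, Hoxb2 and Hoxb3 were at -0.09, 0.0088 and -0.03. Hoxc4, at position 4 and not tested, had a KO to WT ratio of 1.25 with an interval that included 1. Of the 11 at positions 5 to 8, 5 were tested and 3 passed (median -0.79). Of the 16 at positions 9 to 13, 10 were tested and 5 passed (median -0.64), with 4 of the 10 above 0. The 5 include Hoxc10, Hoxc12 and Hoxd13, which met the filter mainly or wholly on WT counts (0, 1 and 1 KO libraries at its level). Beside these counts stand the 34.8% of genes lower in KO in the same abundance range, which is close to 3 of 8 and to the 3 of 7 and 2 of 6 of clusters A and B. The summed level was 18.0 ± 3.73 CPM in KO and 40.8 ± 6.13 CPM in WT at positions 1 to 4 (ratio 0.442), 16.8 ± 3.09 and 25.1 ± 4.39 CPM at 5 to 8 (ratio 0.668), and 13.8 ± 0.804 and 21.5 ± 5.46 CPM at 9 to 13 (ratio 0.641), with no overlap between the groups in any of the 3 classes. Taken singly, paralogue groups 1, 3, 4, 7, 9 and 13 did not overlap, with ratios of 0.605, 0.426, 0.383, 0.567, 0.664 and 0.537. The other groups overlapped, and group 10 had a ratio of 0.966, since Hoxc10 was lower in KO and Hoxa10 and Hoxd10 were read higher there. Among single genes of the same abundance range, 30.5% had all KO libraries below all WT libraries, and no share was computed for sums of genes. Some of these sums rest on few genes. In group 3, Hoxa3 made up 6.14 of the mean 7.09 CPM in KO and 14.7 of 16.6 CPM in WT. Group 4 was mostly Hoxb4 (3.47 of 5.93 and 9.998 of 15.5 CPM) and Hoxa4 (1.71 and 4.77 CPM). In group 9, Hoxc9 made up 3.89 of the mean 6.13 CPM in KO and 7.45 of 9.23 CPM in WT. The differences of Hoxa9 (0.37) and Hoxd9 (0.76) were above 0.

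**Figure D3:**
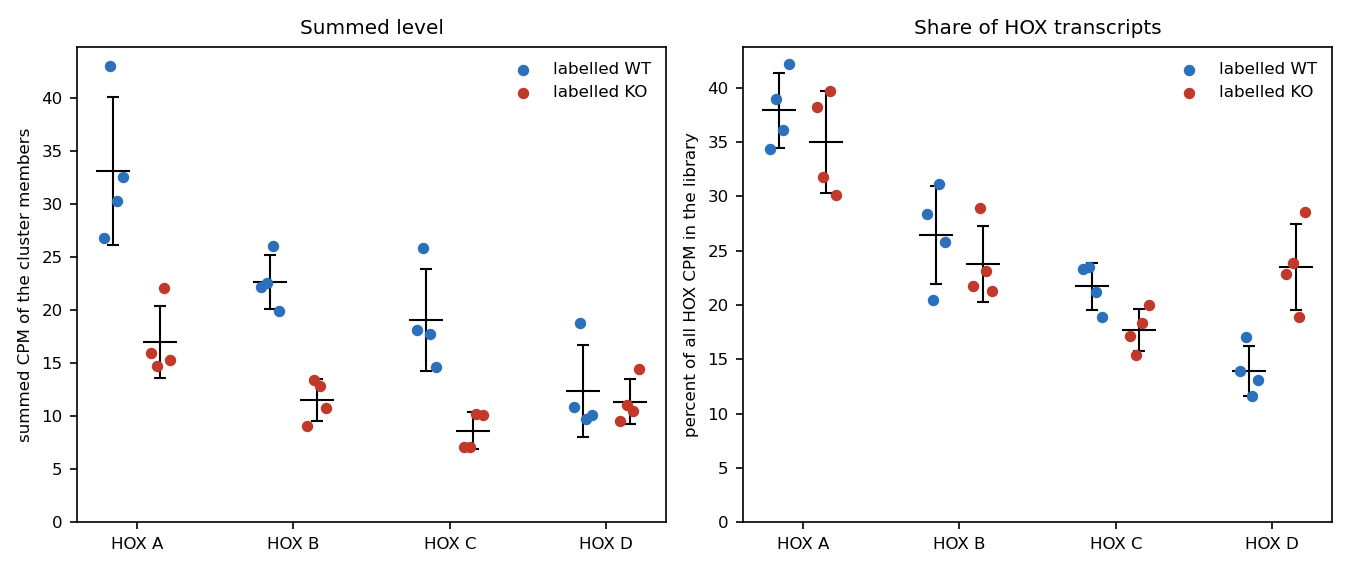
Summed CPM of each cluster (left) and its percent of all HOX CPM in the library (right), with a point per library and the mean and SD of each group of 4. KO points lie below all WT points in the sums of clusters A, B and C, and the sum of cluster D overlaps, while its share is higher in every KO library (18.9% to 28.5%) than in any WT library (11.7% to 17.1%).

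WT 2 had the highest value among the WT libraries for 16 of the 23 tested members, and KO 3 the highest among the KO libraries for 9. Without WT 2 the ratio of the summed HOX level was 0.609 and without KO 4 it was 0.548.

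Per kilobase of exon, HOX genes were expressed at low levels. The median over tested protein-coding genes was 3.33 CPM per kb in WT and 3.59 in KO, and 2 HOX members lay above it in WT and 0 in KO. In WT the order of mean levels was Hoxb4 (3.90 ± 0.345 CPM per kb), Hoxb7 (3.81 ± 0.695), Hoxc9 (3.07 ± 0.519), Hoxa4 (2.99 ± 1.18), Hoxa7 (2.55 ± 0.330), Hoxa3 (2.44 ± 0.504), Hoxd1 (2.22 ± 0.383) and Hoxd8 (1.53 ± 0.736). No gap between neighbours in this order exceeded the sum of their SDs. In KO the order began with Hoxb7 (2.20 ± 0.683), Hoxd8 (2.03 ± 0.429), Hoxc9 (1.60 ± 0.172), Hoxd1 (1.48 ± 0.352), Hoxa7 (1.43 ± 0.474) and Hoxb4 (1.35 ± 0.400), again with no gap above the sum of the neighbours' SDs. Hoxb4 thus moved from rank 1 to rank 6 and Hoxd8 from rank 8 to rank 2.

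Some members share exon sequence with another gene, and the strand setting of the counting is not given, so their reads may be split or lost. Hoxd3 and Hoxd4 share 62.3% and 52.3% of their exon bases with genes on the same strand, among them each other. Genes on the opposite strand cover 52.9% of Hoxb3 and 27.3% of Hoxb2 (Hoxb3os), 35.0% of Hoxa11 (Hoxa11os), 25.4% of Hoxa3, 20.4% of Hoxa7 and 15.998% of Hoxa4. The values of these genes are uncertain to that extent.

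Inside the clusters, 43 non-coding genes were listed and 4 had enough counts to be tested. Haglr, a non-coding RNA that starts next to Hoxd1, fell from 4.40 CPM in WT to 2.28 CPM in KO (log2 difference -0.96, edgeR adjusted p = 0.0124). The antisense gene Gm15050 of cluster A also fell (-1.40, edgeR adjusted p = 0.0124), Gm53 of cluster B rose (1.35, edgeR adjusted p = 0.0458) and Hoxd3os1 did not pass (-0.15). With cyclic loess scaling neither fall was called, and the rise of Gm53 was not called without KO 4, without WT 2 or with upper-quartile or ribosomal protein scaling. Among the microRNA genes of the clusters, Mir196b, Mir196a-2 and Mir615 had 0 counts in all 8 libraries, and Mir10a had 1, 1, 0 and 1 counts in KO and 4, 1, 7 and 3 in WT. Such counts stem from total RNA libraries and are not a measure of the mature microRNAs. Of the 3 protein-coding genes inside the clusters that are not HOX genes, 1 was tested: 5730596B20Rik in cluster A fell by 1.71 on the log2 scale (edgeR adjusted p = 0.00179). It shares exon sequence with Hoxa3 on the opposite strand, so its reads and those of Hoxa3 may not be separate. Beside the counts of called genes inside the clusters stand 28.2% lower and 25.3% higher over all tested genes.

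Of the 16 protein-coding genes nearest to the clusters on the outside, 4 per cluster, 15 were tested, with 10 higher in KO, 3 lower and 2 not passing (median 0.79). Over all tested protein-coding genes, 31.0% were higher and 29.8% lower. These shares are not matched for abundance, and in the abundance range of the HOX members 12.5% were higher and 34.8% lower. Many of the flanking genes lay above that range, for which no share was computed. All 4 around cluster C were higher: Calcoco1 (0.72), Cbx5, which encodes the heterochromatin protein HP1 alpha (0.83), Smug1 (0.99) and Atp5g2 (1.00). Around cluster A, Evx1, a homeobox gene at the 5′ end, was higher (1.74, edgeR adjusted p = 0.00614), as was Hibadh (0.95), while Skap2 at the 3′ end was lower (-0.62, edgeR adjusted p = 0.000431). Around cluster B, Skap1 (-1.92) and Ttll6 (-1.49) were lower and Snx11 (0.88) and Calcoco2 (1.23) higher. Next to cluster D, Hnrnpa3 (0.79) and Mtx2 (0.55) were higher and Lnpk did not pass (edgeR adjusted p = 0.147). The difference between HOX genes and their flanks was not tested.

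Genes known to control HOX clusters, or to act with their products, did not share 1 direction. Over all tested protein-coding genes, without matching for abundance, 31.0% were higher and 29.8% lower. Among 22 Polycomb genes, 11 rose in KO, 5 fell and 6 missed the threshold (median 0.31). With upper-quartile scaling 8 were higher and 6 lower (median 0.08), and with ribosomal protein scaling 9 and 6 (median 0.15). Mtf2 and Ezh2, an accessory protein and the methyltransferase of Polycomb complex PRC2, rose from 61.3 to 118 and from 54.5 to 113 CPM (log2 differences 0.95 and 1.06), and Phc2 of the PRC1 complex fell from 130.3 to 76.9 CPM (-0.76). Of 20 tested activators, 9 were higher, 3 lower and 8 did not pass (median 0.18, and -0.07 with upper-quartile scaling). The H3K27 demethylase gene Kdm6b rose by 1.40 (SE 0.12, edgeR adjusted p = 2.33e-06), the retinoid receptor gene Rxrb by 1.22 and Men1, a subunit of MLL complexes, by 1.02. Upper-quartile and ribosomal protein scaling shifted the median of all genes by -0.24 and -0.18, and the HOX median then stood at -1.03 and -0.98. These scalings changed the share of higher genes among all called genes from 47.3% to 31.2% and 34.8%, and 13 and 12 HOX members were then lower. With cyclic loess scaling the HOX median was nearer to that of all tested genes (-0.47 beside 0.02), with 9 members lower and 2 higher. Cluster medians with that scaling were -0.47 for A, -0.06 for B, -1.24 for C and 0.17 for D.

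The counts in this paragraph stand beside 31.0% higher and 29.8% lower over all tested protein-coding genes, shares not matched for abundance. Of 11 genes of the TALE class, 2 were higher, 3 lower and 6 did not pass. Their median of 0.04 turned negative with upper-quartile, ribosomal protein and cyclic loess scaling, which each left 1 called higher, and without KO 4. Tgif1 rose by 2.71 (edgeR adjusted p = 8.89e-07), Meis3 fell by 1.54 (edgeR adjusted p = 0.00186) and Pknox2 fell by 1.08 (edgeR adjusted p = 0.00857). Among 9 tested retinoic acid and geminin genes 3 rose, 3 fell and 3 missed the threshold (median -0.40), and 2 were higher and 1 lower without KO 4 or without WT 2. Aldh1a2, a retinoic acid synthase, fell by 1.13 (edgeR adjusted p = 0.00022) and Gmnn rose by 1.39 (edgeR adjusted p = 3.03e-05). Aldh1a1 was called higher (3.796, edgeR adjusted p = 0.00908) on KO 4, which held 2007 counts against 20 to 66 in each other library. Of 8 tested relatives of the HOX genes outside the clusters 2 were higher, 4 lower and 2 did not pass (median -1.08). Gbx2 rose by 2.47 (edgeR adjusted p = 9.94e-05), while En1 fell by 1.15 and Meox1, a somite gene, by 2.13 (edgeR adjusted p = 0.000311 and 0.00126).

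Somatic markers also differed between the groups, and in these bulk samples fewer cells of a type and less RNA per cell cannot be told apart. The counts of called markers stand beside 31.0% higher and 29.8% lower over all tested protein-coding genes, shares not matched for abundance. The 14 germ cell markers summed to 2450 to 3000 CPM in KO and 2590 to 3093 CPM in WT, which overlapped. Of them 7 were higher in KO (Dazl by 0.71 and Sycp3 by 1.44), 3 were lower (Mael by 1.13) and 4, Ddx4 among them, did not pass. The 6 smooth muscle markers summed to 17.9 to 31.6 CPM in KO and 48.3 to 91.4 CPM in WT, and 4 of 5 tested fell, Myh11 by 1.56 and Cnn1 by 2.12, while Acta2 did not pass (-0.77). The 9 macrophage markers summed to 3.06 to 8.80 and 16.5 to 20.7 CPM, and all 5 tested fell, Fcgr1 by 3.24, Adgre1 by 2.02, Mrc1 by 1.40 and Csf1r by 0.83. With cyclic loess scaling 2 of the 5 were called lower, and 5 of the 9 macrophage markers were at 0 in at least 1 library. The 8 endothelial markers summed to 83.0 to 102 and 104 to 131 CPM, and 5 of 7 tested fell, with Flt1 (-1.30) and Cdh5 (-0.64), while Pecam1 rose (1.00); without KO 4, 3 were called lower. All KO libraries lay below all WT libraries in these 3 sums, as they did in the summed HOX level.

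The sums of the other somatic lists did not follow that pattern. The counts of called genes in these lists also stand beside 31.0% higher and 29.8% lower over all tested protein-coding genes, and 3 of 11 higher is near that share. The 14 Sertoli markers summed to 161 to 195 CPM in KO and 95 to 115 CPM in WT, with 5 of 13 tested higher and 1 lower (7 and 0 without WT 2, and 5 and 0 with cyclic loess). Dmrt1, which germ cells also express, was at 104 ± 13.4 CPM of this sum in KO and 38.2 ± 3.21 CPM in WT. Amh (1.20), Wt1 (1.13) and Dmrt1 (1.45) were higher, and Sox9 did not pass (0.46). The 8 Leydig markers, summed at 27.5 to 33.5 CPM in KO 1 to KO 3, 1854 CPM in KO 4 and 28.2 to 46.1 CPM in WT, were called higher for 5 of 7 tested (Cyp17a1 6.61, Cyp11a1 4.50, Hsd3b1 4.64) and for 0 without KO 4. The 11 markers of interstitial mesenchyme overlapped (145 to 195 and 111 to 170 CPM), with 3 higher, Col1a1 (0.65) among them, and Nr2f2 (0.74) and Pdgfra (-0.30) not passing. Without WT 2, 7 of them were called higher, and with cyclic loess 5 were higher and 1 lower. Those of the mesonephros and epididymal duct, tissues that express HOX genes, summed to 59.2 to 101 and 69.0 to 88.8 CPM, with Pax2 (-1.87) and Pax8 (-0.93) among 5 lower and Lhx1 (2.51) among 2 higher of 10 (1 without KO 4 and with upper-quartile or ribosomal protein scaling). Though their sums overlapped, the median of the 10 was -0.97. All KO libraries lay below all WT libraries for 6 of them and above for 1. Over tested protein-coding genes, 26.4% and 28.9% did so. The erythroid list overlapped (12.9 to 21.4 and 18.2 to 23.0 CPM), with Alas2 lower (-1.005), Hba-a1 higher (1.34) and Hba-a2 not tested. No erythroid gene was called higher without KO 4 or with upper-quartile or ribosomal protein scaling, and 3 were with cyclic loess. WT 2, the library with the highest HOX level, was also the highest WT library for the Sertoli, Leydig, mesenchyme, smooth muscle, mesonephros, endothelial and macrophage sums and the lowest for the germ cell sum. The KO libraries differed in this: KO 3 had their highest HOX level (55.6 CPM) and smooth muscle sum (31.6 CPM). It had their lowest mesonephros (59.2 CPM) and endothelial (83.0 CPM) sums, and was not the highest for the Sertoli, Leydig, mesenchyme or macrophage sums. The part of these somatic markers in the HOX differences was not tested.

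**Figure D4:**
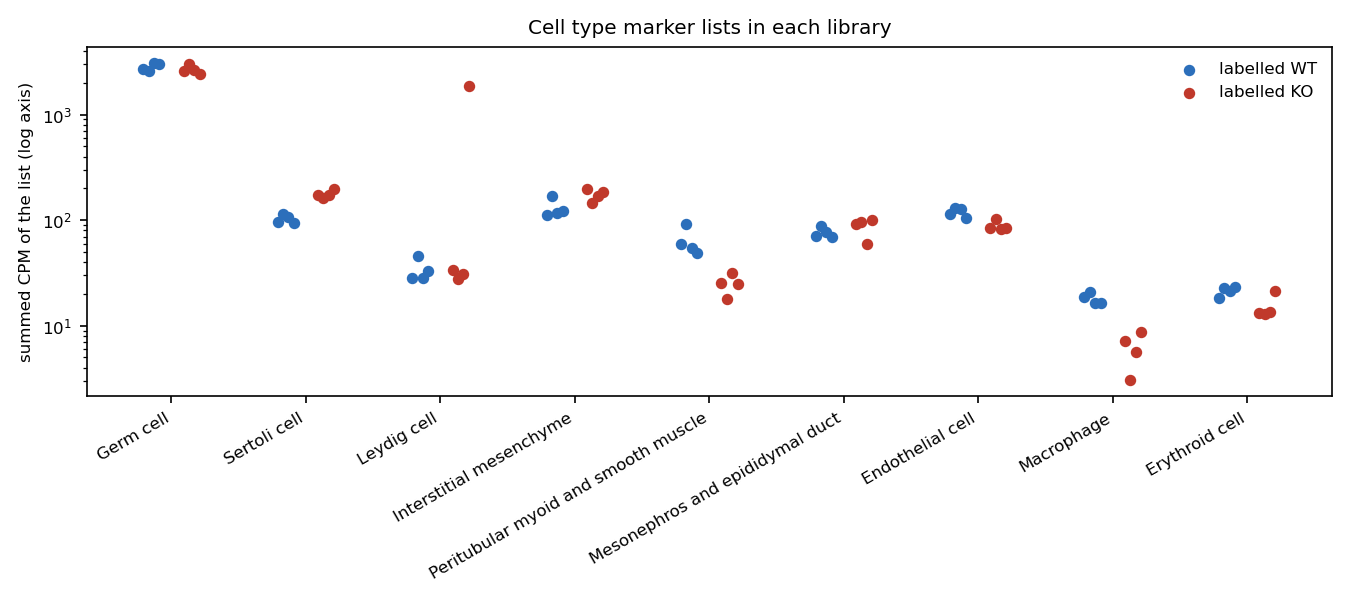
Summed CPM of each cell type marker list (log axis), with a point per library, blue for WT and red for KO. KO lies below WT for smooth muscle, endothelial and macrophage markers and above it for Sertoli markers, and KO 4 stands apart in the Leydig list at 1854 CPM. A large part of the Sertoli sum is Dmrt1, which germ cells also express and which was itself higher in KO.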

How the data were processed

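RNA-seq counts of 4 libraries labelled KO and 4 labelled WT were used. The values deposited are whole-number read counts for each gene and library, with no scaling. Per the labels' protocols, RNA was extracted with TRIzol, treated with DNase, depleted of ribosomal RNA and made into libraries from 5 ng with a SMART-seq kit that carries molecular identifiers. Per the submitters' processing notes, which give neither roles nor order, the tools were STAR, Trim Galore, featureCounts 1.5.0, DESeq2 and edgeR, and the build was mm10. How molecular identifiers were handled, the strand setting and the annotation release were not given in the sources used here. Of 55401 identifiers, 55141 matched GENCODE M21 without the version, and all 39 HOX members matched with it.

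Counts were filtered with filterByExpr, scaled by TMM and tested with edgeR 4.0.16 (R 4.3.3) by glmQLFit and glmQLFTest on the genotype label, with Benjamini-Hochberg adjustment over 24005 genes. Genes were called at an adjusted p under 0.05. The common biological coefficient of variation was 0.217. Replicate pairs of a group differed by more than counting noise (chi-square per degree of freedom 7.34 to 26.5), so all 8 libraries were kept as separate. Total counts of 13820764 to 20115250 per library set the precision, and counting intervals for untested members were exact binomial (95%). The fit was tested on simulated counts.

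The members and lists were chosen with earlier results of these data known. Values in every library were given for up to 4 members per cluster with the lowest p, for tested members above 0 and as counts for untested ones. Up to 3 genes were named per companion list and per cluster's surroundings, and up to 2 per marker list with its first 2 members. Some genes that fall under these rules are not reported singly here and stay in all counts and sums. Flanking genes were described beyond that rule after their values were seen. Alternatives were DESeq2 1.42.0, median-ratio (RLE), upper-quartile, ribosomal protein and cyclic loess (limma 3.58.1) scaling, no filter, a filter of 1 CPM in 4 libraries, protein-coding genes only, robust dispersion, the replicate number as a block, leaving out each library, and an adjusted p under 0.1 as the threshold. Summed levels without each library, and counts of lists under other scalings, were added after seeing the data.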

Additional observations from a re-analysis of the deposited data

Results flagged for a closer look

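In all, 62 groups of 4 libraries were examined. Of these, 9 held a library whose gap to the nearest other was large for the group's range (Dixon's test at 95%). Chance gives about 1 in 20 for independent, normally distributed groups. These groups are not independent, since the sums hold the single genes, and some have few counts. The 9 therefore cannot be set against that rate. In KO 3, Hoxa3 was at 9.37 CPM against 4.77 to 5.27 CPM in the other KO libraries, and Hoxc12 at 0.664 against 0 to 0.113 CPM. The same library was apart in the summed level of cluster A, at 22.1 against 14.7 to 15.97 CPM, and in that of paralogues 1 to 4, at 23.5 against 15.3 to 16.6 CPM. In WT 2, Hoxa13 was at 3.19 CPM against 1.23 to 1.31 CPM, and the sum of cluster D at 18.8 against 9.78 to 10.9 CPM. Hoxb13 was at 3.01 CPM in KO 2 against 0.900 to 1.11 CPM. Hoxc6 was at 2.31 CPM in KO 4 against 0.398 to 0.567 CPM, and at 1.10 CPM in WT 4 against 0.581 to 0.666 CPM.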

How the results depend on the processing

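Over all alternatives run, 11313 to 14557 genes were called, beside 12853. HOX members called lower numbered 9 (cyclic loess) to 14 (without WT 4), beside 11. With the replicate number as a block, 11518 genes were called in all, and 11 HOX members lower and 0 higher. Libraries numbered 1 to 4 in both groups had correlations of 0.148, -0.213, -0.115 and 0.0147 between their deviations, so the numbers were not taken to pair them. The library names of KO 1 and WT 1 share a number, and what it marks is not stated in the labels. HOX members called higher, 0 in the main result, were 2 with cyclic loess (Hoxa10 1.85 and Hoxd9 1.51), 1 at an adjusted p under 0.1 (Hoxa10), and 0 to 2 when each library was left out, with the 2 found without WT 2. Of the 11 lower members, 9 kept their call in every alternative that tested them. Hoxb7 did not pass with cyclic loess (edgeR adjusted p = 0.0885), and Hoxc12 did not either (adjusted p = 0.0801). Direction turned for Hoxa13 (0.19 with cyclic loess, 0.12 without WT 2), Hoxb2 (0.0088 with cyclic loess), Hoxb13 (-0.10 without KO 2) and Hoxc6 (-0.55 without KO 4), none of which had passed, and for the summed ratio of cluster D (1.11 without WT 2). When each library was left out, these ranged from -0.48 to 0.12 for Hoxa13, -0.10 to 0.68 for Hoxb13, -0.55 to 0.64 for Hoxc6 and 0.835 to 1.11 for that ratio. The cause was not tested. Depth limits the 16 untested members, with at most 61 counts in a group.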
